A study of Rattus norvegicus with 15 samples.

Results

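The genes described here encode heat shock proteins, chaperones that work with them and a transcription factor that switches many of them on. They are the small heat shock proteins Hspb1, Hspb8 and Cryab, the HSP70 proteins Hspa5 and Hspa8, the HSP90 protein Hsp90aa1, the partner proteins Dnajb1 and Hsph1, and the heat shock factor Hsf1. They were found by gene symbol in RNA sequencing data of rat retina, where each symbol stood for 1 Ensembl identifier, so that they were 9 of 20375 genes listed. All 9 were among the 15424 genes tested, which had a mean value of at least 3.32 (log2 of 10). The genes were chosen by their rlog values over the 5 groups, which were already known, so their levels and differences are given as a description and carry no p-value. The wider list of chaperone genes and the marker lists used below were also chosen with earlier results of these data known. Their calls and p-values are likewise given as a description.

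The series holds 15 retina libraries of wild type Sprague-Dawley rats labelled post natal week 12, with 3 libraries in each of 5 groups, collected on day 31 of the study. The NT (no-treatment) rats were healthy. The sham rats received sodium iodate (NaIO3), an oxidant that damages the retinal pigment epithelium and then the photoreceptors, at 40 mg/kg into a vein after an injection of cell-free saline into the vitreous. Rats of the MSC group received the same NaIO3 dose after intravitreal injection of mesenchymal stem cells from human Wharton's jelly. In the MSC-EPO group these cells had been transduced with a lentivirus carrying human erythropoietin and sorted. Rats of the DPSC group received NaIO3 and cells that the labels name only as DPSC. The labels state that rats with xenografts were also given dexamethasone at 2 mg/kg before surgery and cyclosporin at 10 mg/kg/day after it, so in any comparison with sham the cells and the immunosuppression cannot be told apart. Sham differs from NT by NaIO3 together with the vitreous injection, which cannot be told apart. A cell-treated group differs from NT by these, the cells and the immunosuppression, which cannot be told apart either. The density of the injected cells differs between the labels and the methods of the study and is not given here. Nothing in the labels pairs libraries or names a sequencing batch.

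Chaperones bind proteins that are unfolded or partly folded and either hold them soluble or help them to fold. Small heat shock proteins form large assemblies that hold clients without using ATP, HSP70 and HSP90 proteins fold clients in cycles driven by ATP, and J-domain proteins and nucleotide exchange factors drive the HSP70 cycle. Under proteotoxic stress the factor Hsf1 forms trimers that bind heat shock elements in the promoters of chaperone genes, whereas stress in the endoplasmic reticulum (ER) raises a separate set of chaperones, headed by Hspa5, through the unfolded protein response. In the eye, Cryab is a main structural protein of the lens, and both Cryab and Hspb1 are also made by retinal glia.

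A promoter sequence from RefSeq (build GRCr8) was at hand for 6 of the 9 genes, Hspb1, Hspb8, Hspa5, Hspa8, Dnajb1 and Hsph1. These sequences are shown because stress response elements are a feature that the choice of genes did not use. The 250 bases before each start were searched on both strands for a pair of heat shock units facing each other, written GAANNTTC or TTCNNGAA, for 3 alternating units in a row, written GAANNTTCNNGAA or TTCNNGAANNTTC, and for the ER stress element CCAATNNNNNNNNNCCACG. A run of 3 units also holds both kinds of pair. The stretches around each match follow, 5′ to 3′ on the strand of the gene, with the matched units in capitals.
Hspb1, chr12:26432388-26432445, minus strand: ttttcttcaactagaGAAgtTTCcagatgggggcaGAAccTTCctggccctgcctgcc
Hspb8, chr12:45837270-45837307, plus strand: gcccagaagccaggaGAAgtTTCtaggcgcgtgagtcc
Hspa5, chr3:38452958-38453006, plus strand: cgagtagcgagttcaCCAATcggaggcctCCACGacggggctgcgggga
Hspa8, chr8:50080286-50080328, plus strand: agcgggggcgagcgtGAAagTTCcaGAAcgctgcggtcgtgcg
Hspa8, chr8:50080444-50080486, plus strand: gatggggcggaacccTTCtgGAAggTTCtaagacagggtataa
Dnajb1, chr19:41431142-41431167, minus strand: gcatcgggaggggcgGAAggTTCtgg
Hsph1, chr12:10427248-10427285, plus strand: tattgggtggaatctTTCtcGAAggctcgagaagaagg
Hsph1, chr12:10427317-10427359, plus strand: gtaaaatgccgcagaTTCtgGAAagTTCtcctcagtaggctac

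A pair of heat shock units lay in 5 of the 6 promoters, against 13.6% of the 33469 promoters in the table, and the promoter without a pair was that of Hspa5. Runs of 3 units lay in 2 of the 6 promoters, against 0.663% of all promoters. Hspa8 had such a run at 213 and another at 55 bases before the start, and Hsph1 had 1 at 36 bases. Hspb1 had pairs at 129 and 109 bases, Hspb8 at 23 bases and Dnajb1 at 11 bases before the start, none of them part of a run of 3. The ER stress element was found in Hspa5 at 43 bases before the start and in 0.0657% of all promoters. These matches describe letters in a window and say nothing of binding in these retinas.

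The values are regularized log (rlog) values that the authors computed with DESeq2, on a log2 scale and corrected for library size. The rlog transformation draws values toward the mean of the gene, so that differences are smaller than in counts, and it does not correct for gene length, so that levels were compared between libraries and not between genes. They hold no counts, and so no sequencing depth is given. Every difference below is a difference in rlog value with the standard error (SE) of 1 limma fit of the 15 libraries. That SE pools the spread of all 5 groups, so 1 widely spread group raises it in every comparison. For Hspb1 and Cryab that group was DPSC, with an SD of 0.77 and 2.39. To be called a DEG (differentially expressed gene), a gene needed both an adjusted p below 0.05 and a difference beyond 1 in either direction.

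The summed level of 7 markers of Müller glia, the main glia of the retina, was between 16.43 and 16.88 on the log2 scale in all 15 libraries, and 0 of the 7 were DEGs in any comparison with NT. Their defining marker Rlbp1 ran from 13.13 to 13.42 in NT. It was lower without overlap in sham (12.83 to 13.07), MSC (12.19 to 12.72) and DPSC (12.74 to 13.09), and ran from 12.66 to 13.36 in MSC-EPO. Several libraries stood apart in other respects. The library MSC 1 held the highest value of 20.9% of all tested genes and MSC-EPO 3 that of 21.6%. MSC 1 also held the highest summed level of 14 leukocyte markers, 16.64 on the log2 scale, against 12.46 to 14.62 in the other 8 libraries of the cell-treated groups. DPSC 1 and DPSC 3 held by far the highest summed levels of 18 lens markers, 19.44 and 18.62, against 12.61 in DPSC 2. Of the 14 leukocyte markers 0, 13, 6 and 0 were higher DEGs in sham, MSC, MSC-EPO and DPSC against NT. None of the defining markers of these lists was at 0 in a library. The larger moves of a difference from NT when such a library was left out are given beside it. In whole retina, fewer cells of a type and less RNA per cell cannot be told apart.

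**Figure D1:**
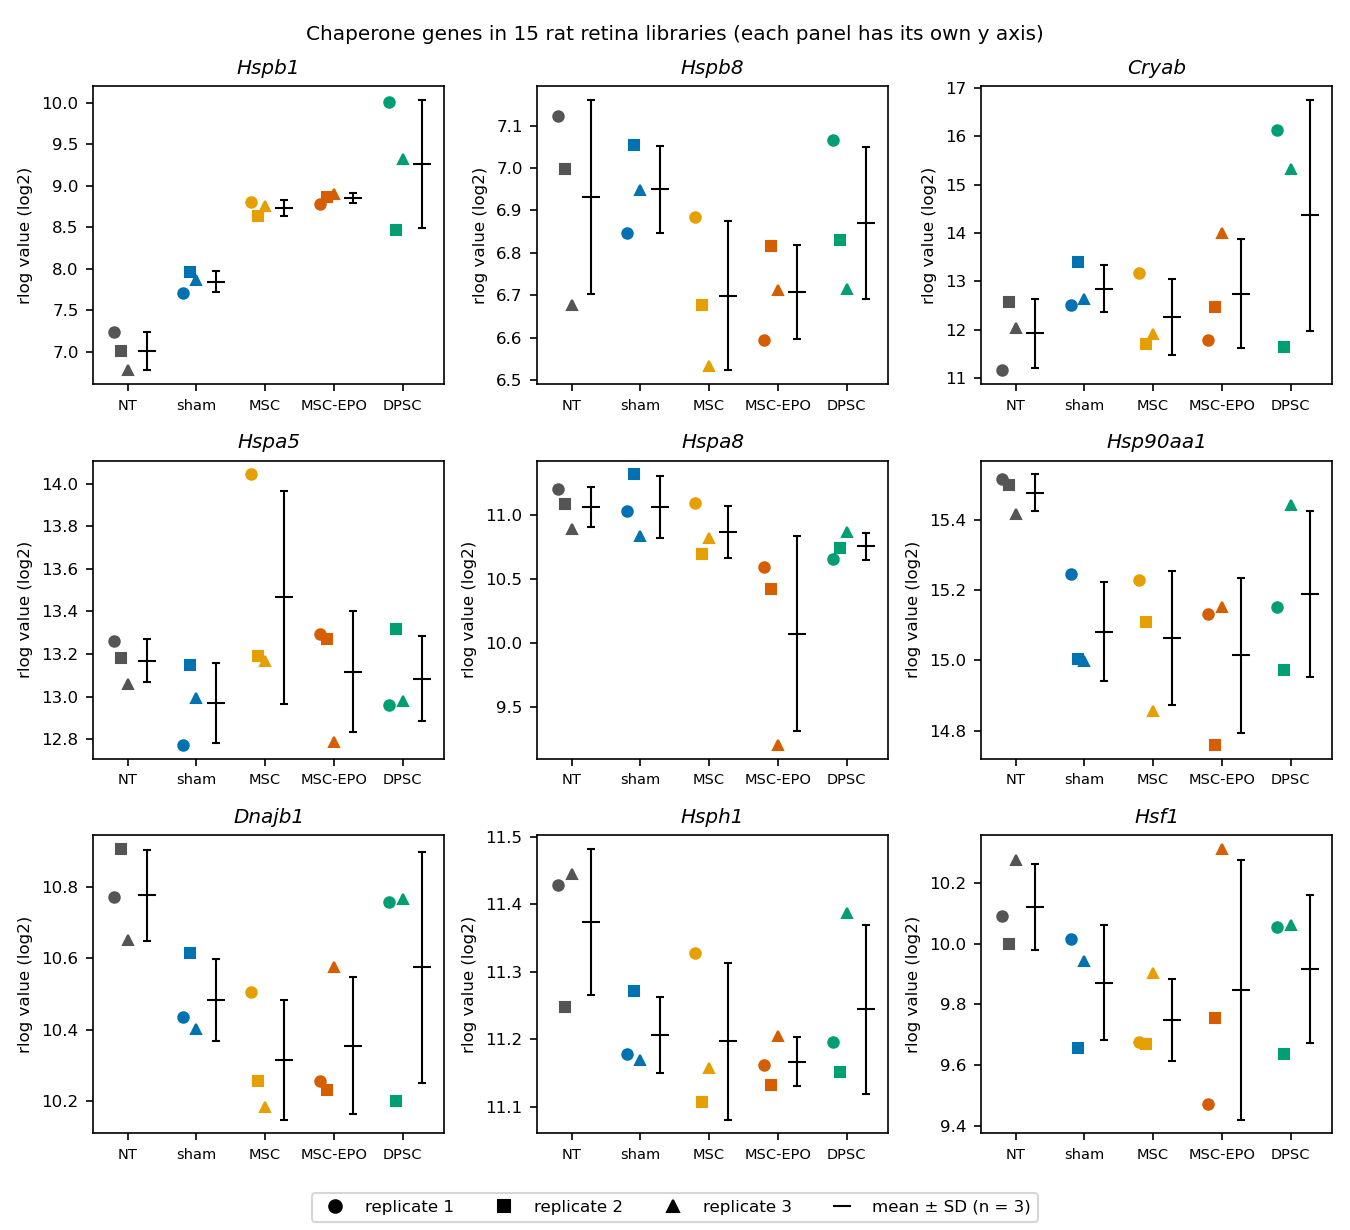
The rlog value (log2) of each of the 9 genes in every library, by group, with circles, squares and triangles for replicates 1, 2 and 3 and bars for the mean and SD (n = 3). Each panel has its own y axis. Hspb1 is lowest in NT (mean 7.01) and highest in DPSC (mean 9.27), Cryab is split within DPSC, and Hsp90aa1 is highest in NT.

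Across the 9 genes, Hspb1 was a DEG against NT in all 3 cell-treated groups and the other 8 were in none. So the DEGs against NT were 0 of 9 genes in sham, where 0.292% of all genes tested were DEGs, 1 of 9 in MSC (6.70% of all), 1 of 9 in MSC-EPO (3.57% of all) and 1 of 9 in DPSC (0.784% of all). With the adjusted p alone, the counts were 0 of 9 in sham (0.888% of all genes), 1 in MSC (17.4%), 2 in MSC-EPO (11.6%), where Hspa8 was added as lower, and 1 in DPSC (2.85%). Against sham, limma called 0 of the 9 genes in MSC (0.00% of all genes), 0 in MSC-EPO (0.0195%) and 0 in DPSC (0.0130%). In MSC-EPO against MSC it called 0 (0.00%). The study used DESeq2 and reported far more DEGs against sham in MSC and MSC-EPO, and it lists Hspb1 among the significant genes of MSC-EPO. The low shares here come from another test on shrunken rlog values and do not show that little differs from sham. At an unadjusted p under 0.05 there were 2 of 9 genes in sham against NT (12.4% of all genes). Against sham there were 2 in MSC (13.3%), 2 in MSC-EPO (8.31%) and 1 in DPSC (2.37%), and in MSC-EPO against MSC there was 1 (3.79%). The genes were picked with these contrasts known, and nothing is read from the counts.

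The libraries of the groups did not overlap for 3 of the 9 genes in sham against NT (1 higher, 2 lower), where this held for 31.9% of all genes tested. The count was 4 of 9 in MSC against NT (44.1% of all), 5 of 9 in MSC-EPO (31.4%) and 2 of 9 in DPSC (31.7%). It was 2 of 9 in MSC against sham (24.5%), 3 of 9 in MSC-EPO against sham (14.3%), 1 of 9 in DPSC against sham (9.82%) and 1 of 9 in MSC-EPO against MSC (4.09%). Hspb1 was the gene that was higher without overlap in every comparison with NT and with sham, and Hsp90aa1 and Dnajb1 were lower without overlap in sham, MSC and MSC-EPO against NT.

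**Figure D2:**
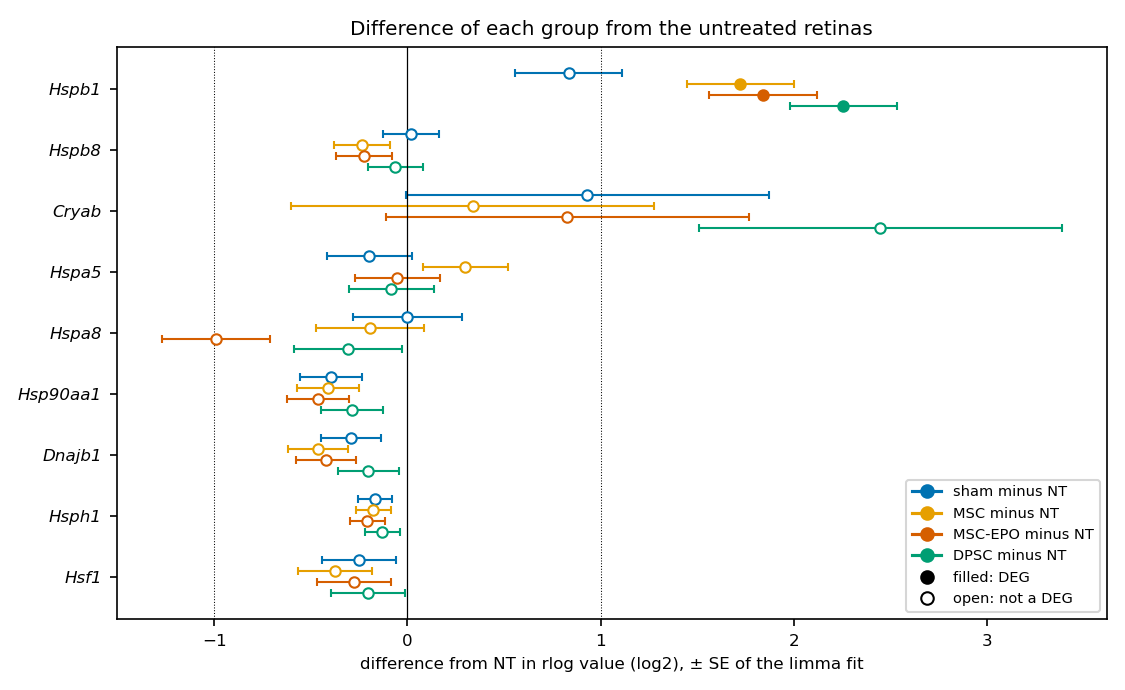
Difference of each group from NT in rlog value (log2, x axis) for the 9 genes, with the SE of the limma fit as bars, filled points for DEGs and dotted lines at the threshold of 1. The filled points are Hspb1 in MSC (1.72), MSC-EPO (1.84) and DPSC (2.26), and most of the remaining points lie between the dotted lines.

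Hspb1 (ENSRNOG00000023546) encodes HSP27, a small heat shock protein that holds unfolding clients and binds actin. Its rlog values were 7.24, 7.01 and 6.78 in NT and 7.71, 7.96 and 7.87 in sham. They were 8.81, 8.63 and 8.76 in MSC, 8.78, 8.87 and 8.90 in MSC-EPO, and 10.01, 8.46 and 9.33 in DPSC. Every sham library was above every NT library, and every library of a cell-treated group was above every sham library. The group means were 7.01 ± 0.23 in NT, 7.84 ± 0.13 in sham, 8.73 ± 0.09 in MSC, 8.85 ± 0.06 in MSC-EPO and 9.27 ± 0.77 in DPSC (SD, n = 3). In that order NT, sham and MSC did not overlap, whereas MSC overlapped with MSC-EPO and MSC-EPO with DPSC.

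The difference of Hspb1 from NT was 0.83 (SE 0.28) in sham, a 1.78-fold level. It was 1.72 in MSC, 1.84 in MSC-EPO and 2.26 in DPSC, levels 3.30-fold, 3.58-fold and 4.78-fold those of NT. Against sham it was 0.89 in MSC, 1.01 in MSC-EPO and 1.42 in DPSC (SE 0.28 each), and MSC-EPO differed from MSC by 0.12. The spread of its group means, 2.26, was wider than that of 98.1% of tested genes. Without DPSC 1 and 3, a setting chosen after the data were seen that leaves 1 library in the group, DPSC 2 was 1.45 above NT and 0.62 above sham. Without MSC 1 and MSC-EPO 3 the differences from NT were 1.68 in MSC and 1.82 in MSC-EPO.

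Several marker lists also differed between the groups. The summed level of 8 reactive glia markers ran from 13.45 to 13.85 in NT, 14.93 to 15.33 in sham, 15.91 to 15.95 in MSC, 15.18 to 16.26 in MSC-EPO and 15.13 to 15.79 in DPSC. Gfap, the intermediate filament of reactive Müller glia and astrocytes, was between 9.43 and 10.08 in NT and between 12.71 and 14.13 in the other groups. Of these 8 glial markers 3 were DEGs in sham against NT, all higher, then 8 in MSC, 8 in MSC-EPO and 5 in DPSC. The summed leukocyte markers ran from 10.71 to 11.496 in NT, 12.44 to 13.10 in sham, 13.77 to 16.64 in MSC, 13.54 to 14.57 in MSC-EPO and 12.46 to 14.34 in DPSC. The summed level of 11 markers of retinal neurons ran the other way, from 18.31 to 18.46 in NT, 17.19 to 17.59 in sham, 16.49 to 16.61 in MSC, 16.07 to 16.99 in MSC-EPO and 16.32 to 17.45 in DPSC, and 0, 6, 6 and 3 of the 11 were lower DEGs in sham, MSC, MSC-EPO and DPSC against NT. The lens list was 19.44, 12.61 and 18.62 in DPSC 1, 2 and 3, where Hspb1 was 10.01, 8.46 and 9.33. In MSC-EPO 1, 2 and 3 the lens list was 12.82, 14.06 and 17.55, where Hspb1 was 8.78, 8.87 and 8.90. The part of these marker lists in the Hspb1 levels was not tested.

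Hspb8 (ENSRNOG00000022392) encodes a small heat shock protein that works with Bag3 in the removal of misfolded proteins by autophagy. Its values were 7.12, 6.998 and 6.68 in NT, 6.85, 7.05 and 6.95 in sham, 6.88, 6.68 and 6.53 in MSC, 6.59, 6.82 and 6.71 in MSC-EPO, and 7.07, 6.83 and 6.71 in DPSC. The groups overlapped except that the MSC-EPO libraries were below those of sham, by 0.24 (SE 0.14). Its differences from NT ran from -0.23 in MSC to 0.02 in sham. The spread of its group means, 0.25, was wider than that of 35.3% of tested genes.

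Bag3 itself, a co-chaperone of HSP70 and of Hspb8, was 7.04, 7.13 and 6.85 in NT and 7.66, 7.78 and 7.68 in sham. It was 8.23, 7.82 and 7.77 in MSC, 7.86, 7.96 and 7.95 in MSC-EPO, and 7.77, 7.94 and 7.35 in DPSC. All 12 libraries that had received NaIO3 were above all 3 NT libraries. Its difference from NT was 0.70 in sham (adjusted p = 0.0637, limma), 0.93 in MSC (adjusted p = 0.00282), 0.92 in MSC-EPO (adjusted p = 0.00333) and 0.68 in DPSC (adjusted p = 0.0405), below the fold threshold of a DEG in each. Bag3 passed the adjusted p in DPSC and not in sham, although its difference from NT was slightly larger in sham. The p-values are adjusted within each comparison, so this is no contrast between sham and the cell-treated groups.

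Cryab (ENSRNOG00000010524) encodes alpha B crystallin, a small heat shock protein of lens and glia. Its values were 11.15, 12.56 and 12.04 in NT, 12.51, 13.40 and 12.64 in sham, and 13.16, 11.71 and 11.90 in MSC. In MSC-EPO they were 11.77, 12.47 and 13.99, and in DPSC 16.14, 11.64 and 15.32. DPSC 1 and 3 were above every other library, while DPSC 2 was below every sham library and inside the range of NT. Its pooled SD within groups, 1.29, was larger than that of 99.3% of tested genes.

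The difference of Cryab from NT was 0.93 in sham, 0.34 in MSC, 0.83 in MSC-EPO and 2.45 in DPSC, each with an SE of 0.94, and all groups overlapped. The value in DPSC was decided by single libraries. It was 3.81, and a DEG, without DPSC 2, and -0.28 without DPSC 1 and 3. In sham against NT it ran from 0.55 without NT 1 to 1.25 without NT 2. In MSC against NT it was -0.11 without MSC 1, and in MSC-EPO it was 0.21 without MSC-EPO 3.

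The lens markers were highest in the same libraries as Cryab, DPSC 1 and DPSC 3. Their summed level ran from 11.96 to 14.65 in NT, 14.78 to 15.49 in sham, 13.68 to 16.22 in MSC, 12.82 to 17.55 in MSC-EPO and 12.61 to 19.44 in DPSC. The defining lens genes Cryba1 and Crygs were 17.10 and 15.53 in DPSC 1, 16.16 and 14.75 in DPSC 3, and 10.10 and 8.38 in DPSC 2. Cryaa, the lens partner of Cryab, was 18.21, 11.67 and 17.50 in DPSC and 10.73, 14.11 and 13.48 in NT, a difference of 3.02 (SE 1.56, adjusted p = 0.357, limma). Of the 18 lens markers 0 were DEGs in any comparison with NT. The part of lens RNA in the Cryab levels was not tested.

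**Figure D3:**
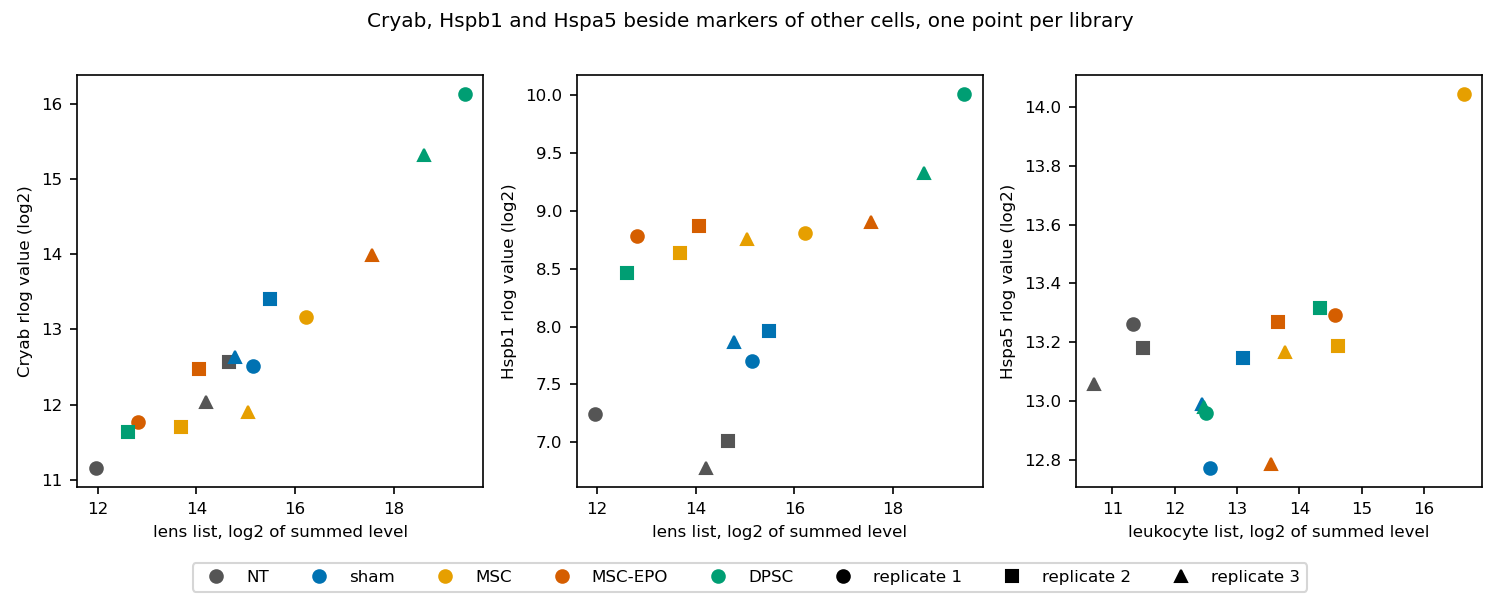
Each library as a point, with the log2 of the summed lens markers (left and middle) or leukocyte markers (right) on the x axis and the rlog value (log2) of Cryab, Hspb1 or Hspa5 on the y axis, coloured by group and shaped by replicate. Cryab is highest in DPSC 1 (16.14), the library with the highest lens level (19.44). Hspb1 is between 8.46 and 8.90 over a wide range of lens levels in MSC, MSC-EPO and DPSC 2. It is highest, at 10.01 and 9.33, in DPSC 1 and 3, where the lens level is also highest (19.44 and 18.62). Hspa5 is highest in MSC 1, the library with the highest leukocyte level (16.64).

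Hspb2 is the neighbour of Cryab in the RefSeq annotation, and the spans of these small heat shock protein genes overlap, so reads may be split between them with error. Its values were 5.05, 5.13 and 4.90 in NT and 5.75, 5.40 and 5.41 in DPSC, without overlap. DPSC 2, where Cryab was low, did not stand apart for Hspb2. Hspb6, another small heat shock protein, was 9.59, 9.75 and 9.45 in NT and 9.11, 9.04 and 9.21 in MSC, a difference of -0.48 (adjusted p = 0.036, limma). In MSC-EPO 3 and DPSC 3 it was 9.65 and 9.46, inside the range of NT.

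Hspa5 (ENSRNOG00000018294) encodes BiP, the HSP70 protein of the ER and the sensor that holds the unfolded protein response in check. Its values were 13.26, 13.18 and 13.06 in NT, 12.77, 13.15 and 12.99 in sham, and 14.04, 13.19 and 13.17 in MSC. They were 13.29, 13.27 and 12.79 in MSC-EPO and 12.96, 13.32 and 12.98 in DPSC. MSC 1 stood above every other library, and the remaining 14 libraries lay between 12.77 and 13.32. The MSC libraries were above those of sham by 0.50 (SE 0.22) and that difference was 0.21 without MSC 1. The differences from NT ran from -0.20 in sham to 0.30 in MSC, and the latter was 0.01 without MSC 1.

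The other chaperones of the ER shared the high value in MSC 1. Hsp90b1 (GRP94), the HSP90 protein of the ER, was 15.01 in MSC 1 and between 13.28 and 13.79 in the other libraries. Of a list of 23 further ER chaperones and folding enzymes, 19 (82.6%) had their highest value in MSC 1, against 20.9% of all tested genes. The median of that list relative to NT was 0.66 in MSC 1 and between -0.17 and 0.14 in the other 14 libraries. In that library the leukocyte markers were also at their highest, with Ptprc at 12.15 and the T cell gene Cd3e at 9.67, against at most 10.49 and 6.48 elsewhere, and their part in the ER chaperone levels was not tested. The list had 0 DEGs in MSC against NT (8 of 23 genes at an unadjusted p under 0.05, and 30.7% of all genes) and 1 gene past the adjusted p alone (17.4% of all). That gene, named here for its result, was Sel1l, an adaptor of ER-associated degradation, lower by 0.58 (adjusted p = 0.0346, limma).

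Hspa8 (ENSRNOG00000034066) encodes HSC70, the constitutive HSP70 protein of the cytosol, which also uncoats clathrin vesicles. Its values were 11.21, 11.09 and 10.89 in NT, 11.03, 11.32 and 10.84 in sham, and 11.09, 10.69 and 10.82 in MSC. They were 10.60, 10.42 and 9.20 in MSC-EPO and 10.66, 10.74 and 10.87 in DPSC. Each MSC-EPO library was below every library of the other groups, and MSC-EPO 3 was lower by more than 1 than any other. The difference of MSC-EPO was -0.99 from NT, -0.99 from sham and -0.80 from MSC (SE 0.28 each). Without MSC-EPO 3 these were -0.55, -0.55 and -0.36.

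Without MSC-EPO 1 or without MSC-EPO 2 the difference of Hspa8 from NT was -1.25 and -1.17, past the thresholds of a DEG. Both settings give more weight to MSC-EPO 3, the lowest library, so these values rest on that library. The other groups differed from NT by 0.00 in sham, -0.19 in MSC and -0.31 in DPSC. Hspa8 has near-identical copies in the rat genome, so the split of its reads is uncertain. In MSC-EPO 3 the J-domain protein Dnajc5, the partner of Hspa8 on synaptic vesicles, was also at its lowest, 9.51 against 10.55 to 11.04 in the other libraries.

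Hspa1a, a heat-inducible HSP70 gene, is listed under 2 identifiers of near-identical sequence, and reads may be divided between them by the quantification. Under ENSRNOG00000045654 its values were 11.06, 11.48 and 11.49 in NT and 10.63, 10.52 and 6.99 in MSC-EPO. Under ENSRNOG00000050647 they were 11.38, 11.34 and 11.23 in NT and 9.97, 10.23 and 11.15 in MSC-EPO. MSC-EPO 3 was thus lowest for the former identifier and highest of its group for the latter. When the levels of both were summed, a step taken after seeing this, the values were 11.34, 11.38 and 11.23 in MSC-EPO.

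The summed Hspa1a level was 12.34 ± 0.10 in NT, 11.84 ± 0.21 in sham, 11.62 ± 0.17 in MSC, 11.32 ± 0.08 in MSC-EPO and 11.68 ± 0.25 in DPSC (SD, n = 3). All 3 NT libraries, at 12.23 or above, were above all 12 libraries of the NaIO3 groups, at 12.08 or below. Taken alone, the identifier ENSRNOG00000050647 was a DEG in MSC against NT, lower by 1.04 (SE 0.26, adjusted p = 0.0161, limma).

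**Figure D4:**
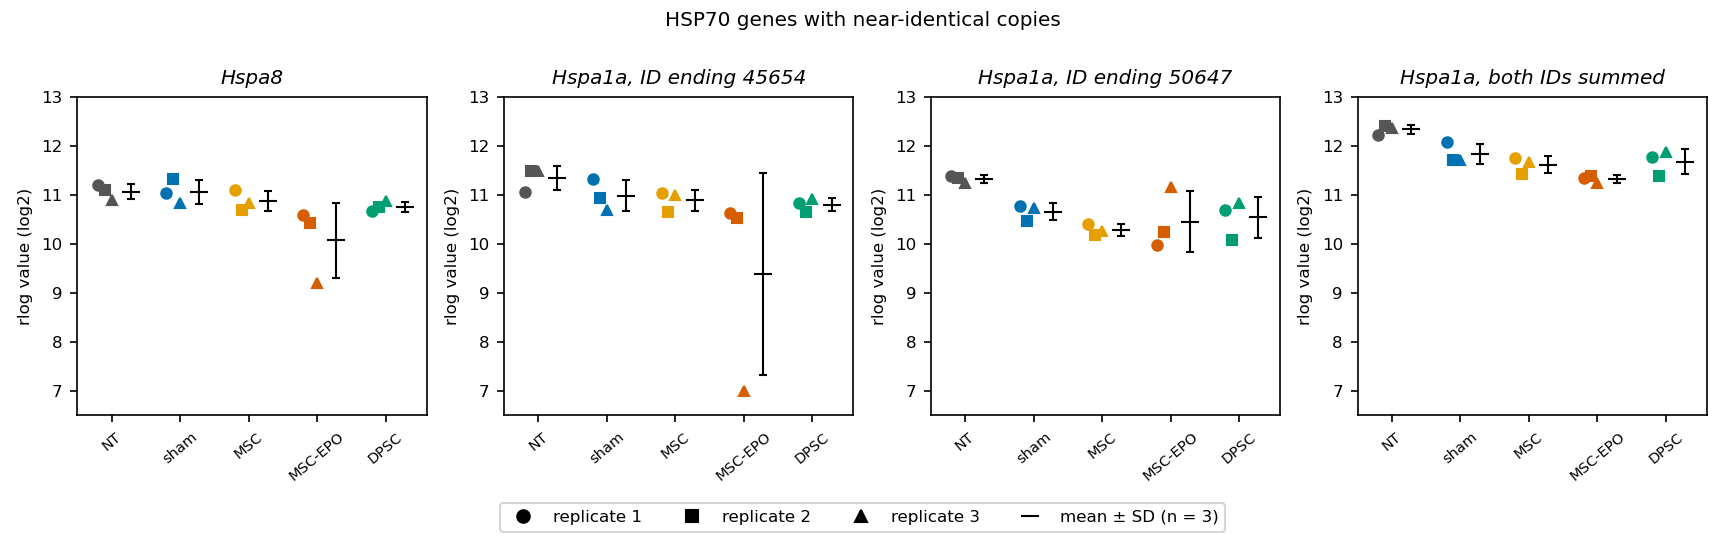
The rlog value (log2) of Hspa8, of Hspa1a under each of its identifiers and of the sum of both, for every library by group on 1 shared y axis, with the mean and SD (n = 3). MSC-EPO 3 stands at 6.99 under the former identifier and at 11.15 under the latter, while the summed level has an SD of 0.08 in MSC-EPO and is highest in NT (12.34).

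Hsp90aa1 (ENSRNOG00000059714) encodes the stress-inducible HSP90 protein of the cytosol, which keeps kinases and receptors in a form ready for use. Its values were 15.52, 15.50 and 15.42 in NT and 15.24, 15.004 and 14.997 in sham. They were 15.23, 15.11 and 14.86 in MSC, 15.13, 14.76 and 15.15 in MSC-EPO, and 15.15, 14.97 and 15.44 in DPSC. NT was above sham, MSC and MSC-EPO without overlap, and DPSC 3 alone of the NaIO3 libraries lay inside the range of NT. The difference from NT was -0.40 in sham, -0.41 in MSC, -0.46 in MSC-EPO and -0.29 in DPSC (SE 0.16 each). In DPSC it was -0.50 without DPSC 1 and 3. The size depended on the scaling. With quantile normalization the difference from NT was -0.19 in sham, -0.25 in MSC, -0.16 in MSC-EPO and -0.13 in DPSC. The cell-treated groups differed from sham by at most 0.11, under the SE.

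Hsp90ab1, the constitutive copy, did not share that pattern. It was 14.34, 14.32 and 14.20 in NT and 14.91, 14.48 and 14.57 in MSC. Its difference from NT was 0.22 in sham, 0.37 in MSC, 0.15 in MSC-EPO and 0.19 in DPSC, with adjusted p from 0.111 to 0.637 (limma). Hsp90aa1 and Hsp90ab1 are close in sequence, and how their shared reads were divided is uncertain.

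Dnajb1 (ENSRNOG00000021824) encodes HSP40, a J-domain protein that hands clients to HSP70. Its values were 10.77, 10.91 and 10.65 in NT, 10.43, 10.62 and 10.40 in sham, 10.50, 10.26 and 10.19 in MSC, 10.26, 10.23 and 10.58 in MSC-EPO, and 10.76, 10.20 and 10.77 in DPSC. As with Hsp90aa1, NT was above sham, MSC and MSC-EPO without overlap, and DPSC 1 and 3 lay among the NT values. The differences from NT were -0.29 in sham, -0.46 in MSC, -0.42 in MSC-EPO and -0.20 in DPSC (SE 0.16 each). The last was -0.58 without DPSC 1 and 3 and -0.01 without DPSC 2.

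Hsph1 (ENSRNOG00000000902) encodes HSP110, a nucleotide exchange factor of HSP70 that helps to dissolve aggregates. Its values were 11.43, 11.25 and 11.44 in NT, 11.18, 11.27 and 11.17 in sham, 11.33, 11.11 and 11.16 in MSC, 11.16, 11.13 and 11.21 in MSC-EPO, and 11.20, 11.15 and 11.39 in DPSC. Only MSC-EPO was below NT without overlap. The differences from NT were -0.17, -0.18, -0.21 and -0.13 in sham, MSC, MSC-EPO and DPSC (SE 0.09 each). It was the steadiest of the 9 genes, with a pooled SD within groups of 0.10, and 7.91% of tested genes had a smaller one.

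Hsf1 (ENSRNOG00000021732) encodes the main heat shock transcription factor, whose activity is set mostly by trimer formation and modification of the protein rather than by its mRNA. Its values were 10.09, 10.00 and 10.28 in NT, 10.01, 9.66 and 9.94 in sham, 9.68, 9.67 and 9.90 in MSC, 9.47, 9.76 and 10.31 in MSC-EPO, and 10.06, 9.64 and 10.06 in DPSC. MSC was below NT without overlap, and MSC-EPO held both the lowest and the highest library of the 15. The differences from NT were -0.25, -0.37, -0.27 and -0.20 in sham, MSC, MSC-EPO and DPSC (SE 0.19 each). In MSC-EPO the difference was -0.51 without MSC-EPO 3 and -0.09 without MSC-EPO 1, and in DPSC it was -0.49 without DPSC 1 and 3.

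Hsf2, a second factor of the family, was 9.94, 10.03 and 10.11 in NT and between 9.49 and 9.82 in the 12 libraries of the NaIO3 groups, without overlap. It was lower than NT by 0.36 in MSC (adjusted p = 0.0228, limma) and by 0.44 in MSC-EPO (adjusted p = 0.0122). In sham and DPSC the differences were -0.33 (adjusted p = 0.146) and -0.29 (adjusted p = 0.136).

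Some of the 9 genes varied together over the 15 libraries, given as Pearson correlations that describe libraries of 5 groups and carry no test. The highest were between Hsp90aa1 and Dnajb1 (0.79), Hsp90aa1 and Hsph1 (0.75) and Dnajb1 and Hsph1 (0.70), which shared high values in NT. Hspb1 and Cryab had 0.61, with the high values of both in DPSC 1 and 3. Hspb1 and Hspa8 had -0.42.

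Among all tested genes, those most like Hspb1 over the 15 libraries were S100a4 (r = 0.96), a calcium binding protein of migrating and mesenchymal cells, Rida (0.92) and Capn2 (0.90), a calcium-activated protease. Cryab was most like LOC100912373 (0.98) and the crystallin genes Crygn (0.98) and Crybb1 (0.97). Hspa5 was most like the cyclin Ccnb1 (0.95), Hsp90b1 (0.95) and the disulfide isomerase Pdia6 (0.95), the last 2 of which were highest in MSC 1. Hspa8 was most like Uba2 (0.95), Ints7 (0.94) and Dnajc5 (0.94).

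Hsf1 was most like the transcription regulators Daxx (0.96), E4f1 (0.96) and Phc1 (0.95), Hsp90aa1 like Mterf4 (0.95), RGD1562136 (0.92) and Rffl (0.92), and Dnajb1 like Oard1 (0.95), Ccng1 (0.94) and Cyp51 (0.93). Hsph1 was most like Prpf31 (0.88), Ddx41 (0.85) and Faim (0.85), and Hspb8 like LOC100912228 (0.86), Fam81a (0.86) and the glial connexin Gjb6 (0.85). All of these correlations are over the same 15 libraries of 5 groups.

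A wider list of other chaperone and stress response genes was tested to set the 9 genes in their pathway. This list was chosen with earlier results of these data known, so its calls and p-values are a description. It held 150 symbols, of which 148 identifiers were found and 140 tested. In sham against NT limma called 0 of the 140 as DEGs (0.292% of all genes tested), with 15 at an unadjusted p under 0.05 (12.4% of all), and with the adjusted p alone 1, higher (0.888% of all). In MSC against NT it called 2 of 140, 1 higher and 1 lower, where 6.70% of all genes were DEGs, and with the adjusted p alone 17 of 140, 7 higher and 10 lower, where 17.4% of all genes passed. In MSC-EPO against NT there was 1 DEG, higher (3.57% of all), and 13 genes with the adjusted p alone, 4 higher and 9 lower (11.6% of all). In DPSC against NT there were 0 DEGs (0.784% of all), 20 genes at an unadjusted p under 0.05 (16.8% of all) and 4 genes with the adjusted p alone, all higher (2.85% of all). The 4 higher genes were Hspa2, Sesn2, Bag3 and Hspb2 in MSC-EPO and also in DPSC, and are named here after their values were seen. The median difference of the list from NT was -0.04, -0.02, -0.07 and -0.05 in sham, MSC, MSC-EPO and DPSC, beside a median of 0.00 over all tested genes in each.

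Hspa2, an HSP70 gene best known from sperm formation, was the DEG that was higher in both MSC groups. Its values were 8.62, 8.72 and 8.55 in NT, 9.50, 9.47 and 9.13 in sham, 9.87, 9.91 and 10.05 in MSC, 10.04, 10.20 and 9.57 in MSC-EPO, and 9.32, 10.05 and 9.35 in DPSC. All 12 libraries of the NaIO3 groups were above all 3 NT libraries. The difference from NT was 1.31 in MSC (SE 0.20, adjusted p = 0.0016) and 1.31 in MSC-EPO (SE 0.20, adjusted p = 0.00144), and 0.94 in DPSC (adjusted p = 0.0256), by limma. The lower DEG in MSC was the Hspa1a identifier described above.

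In sham against NT the gene of the list with the smallest adjusted p was Sesn2, a stress-induced inhibitor of growth signalling, which was 8.68, 8.71 and 8.58 in NT and 9.52, 9.21 and 9.51 in sham. It rose by 0.75 (adjusted p = 0.0164, limma). In DPSC against NT the smallest adjusted p was that of Hspa2. The ER chaperones had 0 DEGs in every comparison with NT, as did the J-domain proteins, the co-chaperones, the chaperonins, the HSP90 family, the small heat shock proteins and the heat shock factors of the list.

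Against sham the list had 0 DEGs by limma in MSC, MSC-EPO and DPSC, and 0 in MSC-EPO against MSC. With no adjustment of p (under 0.05), 15 genes passed in MSC (13.3% of all genes), 11 in MSC-EPO (8.31%) and 3 in DPSC (2.37%) against sham, and 6 in MSC-EPO against MSC (3.79%). The gene with the smallest p was Hspa12b in MSC against sham, lower by 0.38 (adjusted p = 0.147), and Dnajc5 in MSC-EPO against sham, lower by 0.73 (adjusted p = 0.398). It was Trib3 in DPSC against sham, lower by 0.60 (adjusted p = 1.00), and Xbp1 in MSC-EPO against MSC, lower by 0.54 (adjusted p = 0.754). No gene of the list was therefore called between sham and a cell-treated group, with 3 libraries a group on shrunken values.

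**Figure D5:**
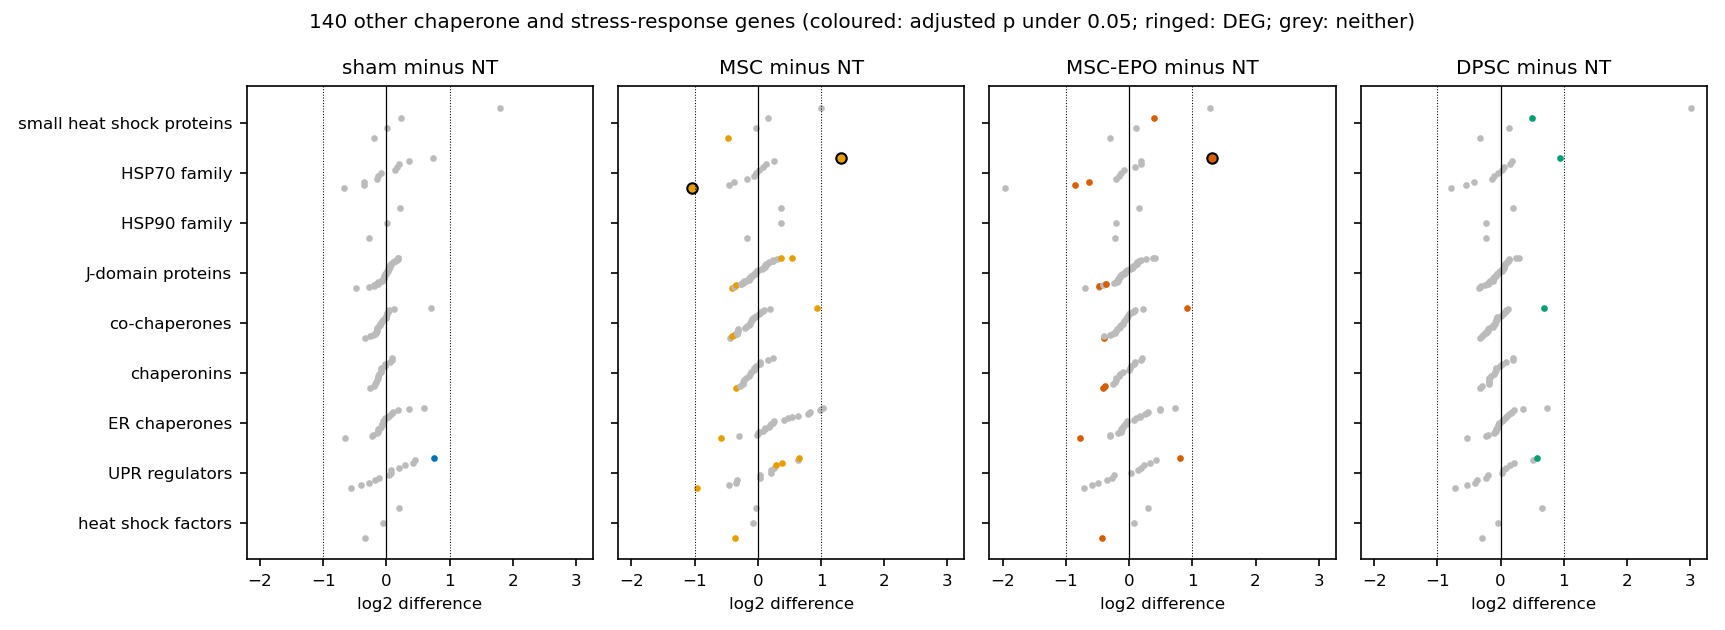
Difference from NT in rlog value (log2, x axis) of the 140 tested genes of the wider list, by family, with 1 panel for each group, coloured points for an adjusted p under 0.05, rings for DEGs and dotted lines at the threshold of 1. Coloured points number 1 in sham, 17 in MSC, 13 in MSC-EPO and 4 in DPSC, and the rings mark Hspa2 in MSC and MSC-EPO (1.31 each) and an Hspa1a identifier in MSC (-1.04).

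In the promoters of the wider list a pair of heat shock units lay in 19 of 122 with a sequence, near the share of 13.6% over all promoters. Runs of 3 alternating units lay in 3 of 122 (Hspd1, Hspe1 and Serpinh1), against 0.663% of all promoters. The ER stress element lay in 7 of 122, against 0.0657% of all promoters. Hspa5, with that element and no heat shock pair, differed from NT by less than 1 in every group. So did Hsph1, with a run of 3 units, and Hspb8 and Dnajb1, with a pair. Hspa8, with runs of 3 units, differed from NT by -0.99 in MSC-EPO and by less in the other groups. Hspb1, with pairs alone, differed from NT by 1.72 in MSC, 1.84 in MSC-EPO and 2.26 in DPSC. The part of these elements in the levels was not tested.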

How the data were processed

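RNA was sequenced from 15 rat retina libraries, which the labels group into NT, sham, MSC, MSC-EPO and DPSC with 3 each. The authors quantified reads with Salmon 1.1.0 against Rnor_6.0, used tximport for gene totals and deposited log2 values, the rlog values of DESeq2 (3.2 in the submitters' processing notes). No counts were used, so depth and counting error are unknown. A table of the whole series repeats these values in 15 columns (0 values differ) and marks 88 genes in a column without a name, and neither was used.

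The values were analysed as deposited with limma 3.58.1 in R 4.3.3 and jsonlite 2.0.0. One fit of group means with a trend on the mean held the 15 libraries and the 15424 genes with a mean of at least 3.32. P-values were two-sided and adjusted by the Benjamini-Hochberg method over all genes tested, in each of 8 comparisons. An exact permutation test of 3 libraries against 3 cannot give a p under 0.1 and was not used. The study speaks of biological replicates, while the labels do not say which animal a library came from. The pipeline was tested on simulated data.

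The wider list of 150 symbols held small heat shock proteins, HSP70 and HSP90 families, J-domain proteins, co-chaperones and chaperonins with prefoldin subunits. It also held ER chaperones, regulators of the unfolded protein response and heat shock factors. The 9 genes, this wider list and the marker lists were chosen with earlier results of these data known. The genes named are the 9, up to 4 called genes of the wider list in each comparison or, with none called, the gene with the smallest adjusted p (ties by the unadjusted p), the 3 genes most correlated with each of the 9, and fixed partners and markers. A summed marker level is the log2 of the sum of the unlogged values. Promoters are those of RefSeq (GRCr8), a later build than that of the expression values. Cryab, Hsp90aa1 and Hsf1 had no entry. Alternatives changed the call (no fold threshold), the filter on low values (none, or applied to each library), the libraries fitted (only those compared, or all but DPSC), the scaling (median centring, quantile normalization) and the weights (array weights), added a replicate block, or omitted 1 library at a time. Leaving out DPSC 1 and 3 together, or MSC 1 and MSC-EPO 3 together, was chosen after seeing the data. A check of the tissue by 1 of its defining markers is not reported here.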

Additional observations from a re-analysis of the deposited data

How the results depend on the processing

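Depth limits could not be given, since the values hold no counts, and rlog values understate the differences of weakly expressed genes. With 3 libraries a group, single libraries decided several values, and the cause was not tested. The difference of Hspb1 from NT ran from 1.55 to 1.84 in MSC, from 1.72 to 1.96 in MSC-EPO and from 1.45 (DPSC 2 as the only library of its group) to 2.66 in DPSC, as a description of values by which the gene was chosen. Of 1125 values of the 9 genes under an alternative, 1105 moved by less than 1 SD between replicates, 20 moved by more and 0 reversed among called values. Leaving out 1 of the 3 libraries of a group cannot move a difference by that SD, and dropping the fold threshold leaves it unchanged. The tally therefore does not measure how steady the values are. Among values that were not called, Cryab in DPSC against NT went from 2.45 to -0.28 without DPSC 1 and 3. Hspb1 in MSC-EPO against sham became a DEG in the fit without DPSC (1.01) and with array weights (1.05), and in DPSC against sham with array weights (1.87) and without DPSC replicate 2 (1.82). Cryab in DPSC against NT became a DEG with array weights (3.65) and without DPSC replicate 2 (3.81). Hspa8 in MSC-EPO against NT became a DEG without MSC-EPO replicate 1 (-1.25) and without replicate 2 (-1.17), settings that give more weight to the low replicate 3.

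The DEGs of the wider list were 0 in sham, 2 in MSC, 1 in MSC-EPO and 0 in DPSC against NT. With the adjusted p alone they were 1, 17, 13 and 4. With array weights there were 4 in MSC-EPO and 2 in DPSC. Without MSC 1 and MSC-EPO 3 there were 4 in MSC-EPO, and without DPSC 1 and 3 there was 1 in DPSC, both settings chosen after seeing the data. The latter leaves 1 library, DPSC 2, which the fit assumes to vary like the other groups. With each library left out in turn the counts ran from 1 (without NT replicate 1, NT replicate 2 or MSC replicate 2) to 8 (without MSC replicate 3) in MSC, from 1 to 4 (without MSC-EPO replicate 3, and 2 without MSC-EPO replicate 1) in MSC-EPO and from 0 to 1 (without DPSC replicate 1 or 3) in DPSC against NT, and from 0 to 1 (without MSC replicate 3) in MSC against sham. The numbers 1 to 3 were not taken as pairs, since nothing in the labels pairs the libraries. Of 30 same-numbered pairs, 12 had a correlation of deviations over 0.1 (from -0.44 to 0.65). The mean was 0.03 over same-numbered pairs and -0.02 over the others, and 6 of 15 libraries correlated best with their own number. With 3 libraries a group these values cannot exclude a pairing or a shared batch. With the replicate block there were 0 DEGs of the list in sham, 2 in MSC, 1 in MSC-EPO and 0 in DPSC against NT. Quantile normalization shifted the median of all genes by -0.10 in MSC against NT, the largest shift of the 3 scalings. Changing the filter, the groups in the fit or the centring left each count within 1.5 times.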

Other observations

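Of 13 regulators of the unfolded protein response in the wider list, 4 passed the adjusted p in MSC against NT, 3 of them higher and 1 lower (limma), where 17.4% of all genes tested passed. They are named here after their values were seen. Atf4, the factor that answers to phosphorylated eIF2 alpha, was lower by 0.96 (adjusted p = 0.0124), with values of 13.76, 13.69 and 13.65 in NT and 12.91, 12.57 and 12.72 in MSC. In sham it was 13.03, 13.07 and 13.32, and in MSC-EPO 3 it was 13.59. Asns, which makes asparagine, was higher by 0.39 (adjusted p = 0.0121), Sesn2 by 0.65 (adjusted p = 0.00558) and the ER kinase Eif2ak3 by 0.29 (adjusted p = 0.0434). Asns, Sesn2, Atf3, Chac1, Ddit3, Trib3 and Ppp1r15a are all known as Atf4 targets, and in MSC they went both ways. Ddit3 differed from NT by -0.46 (adjusted p = 0.0579), Trib3 by -0.34 (adjusted p = 0.28) and Ppp1r15a by -0.35 (adjusted p = 0.17). With Atf4 these were all 4 of the 13 regulators that were lower in MSC at any p, and 9 were higher. The higher ones included Atf3 (0.63, adjusted p = 0.127) and Chac1 (0.20, adjusted p = 0.355). In sham against NT Asns was higher by 0.42 (adjusted p = 0.0516) and Atf4 lower by 0.56 (adjusted p = 0.323).

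Chaperonins are ring-shaped folding machines of the cytosol and mitochondria. The list of 16 genes under that name also held the prefoldin subunits Pfdn1, Pfdn2, Pfdn4, Pfdn5, Pfdn6 and Vbp1, which are not chaperonins. Of the 16 genes, 1 passed the adjusted p in MSC against NT (Cct6a, -0.34, adjusted p = 0.0438, limma). In MSC-EPO against NT 2 passed (Cct6a, -0.41, adjusted p = 0.0249, and Cct3, -0.38, adjusted p = 0.0369). All were lower, where 17.4% and 11.6% of all genes tested passed. The median of the 16 was -0.12 in both.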
